A study of Mus musculus with 4 samples.

Results

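Dense H2A.Z clusters are short stretches of the genome in which many separate H2A.Z peaks follow each other. They were chosen by chaining the peaks listed for the WT liver on chromosomes 1 to 19. Peaks were joined when their summits, the points of highest signal, lay 3 kb or less apart, and a chain of 6 or more peaks was called a dense cluster, spanning the start of its first peak to the end of its last. There were 342 such clusters among 29135 chains, which also comprised 12174 chains of 2 to 5 peaks and 16619 single peaks. The clusters took in 2405 of the 50665 WT peaks and 1674975 bp. The number of WT peaks, the gaps between them and their position therefore define the clusters and are given here as description.

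The livers came from male C57Bl/6 mice of 8 to 12 weeks on a normal diet. WT mice carried Uhrf1-fl/fl. Uhrf1hepKO mice carried Uhrf1-fl/fl and Alb:Cre, in which the albumin promoter drives Cre recombinase in hepatocytes. Which other liver cells keep an intact Uhrf1 was not examined. Each condition had an ATACseq library, which marks open chromatin by transposase insertion. It also had an H2A.Z ChIPseq library from mononucleosomes released by micrococcal nuclease. The labels do not say whether both libraries of a condition came from the same liver. Below, the 2 livers stand for the WT and the Uhrf1hepKO condition. With 1 library for each condition and assay there was no replicate and no test, and a difference between WT and Uhrf1hepKO cannot be told apart from a difference between 2 mice or 2 libraries. The intervals given below are 95% Wilson intervals. They cover counting error only, and they are too narrow where peaks of the same cluster are counted separately. The tissue is whole liver, and a site marked in fewer cells cannot be told apart from a site marked more weakly in all of them.

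H2A.Z is a variant of histone H2A that exchange complexes built around SRCAP or EP400 place into nucleosomes. It is best known from the nucleosomes on either side of the open stretch at active and poised promoters and enhancers, and it is generally absent from methylated DNA. UHRF1 recruits the maintenance DNA methyltransferase to newly replicated DNA. The peaks in each list carry a fold, the enrichment over the local background that the peak caller computed, and all folds below are of this kind. The lists hold no read counts, so the depth behind a peak is unknown.

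On chromosomes 1 to 19 the lists held 50665 WT and 46400 Uhrf1hepKO H2A.Z peaks, with a median width of 156 and 167 bp, and 10439 WT and 10636 Uhrf1hepKO ATACseq peaks. Near the start of Uhrf1 each of the 4 lists held 1 peak, with a fold of 6.58 and 6.04 for H2A.Z and 3.96 and 4.70 for ATACseq in WT and Uhrf1hepKO, which does not check the deletion. Of 33 secreted and metabolic hepatocyte genes, the transcription start site (TSS) of 10 lay within 5 kb of a WT H2A.Z peak and that of 5 within 5 kb of a WT ATACseq peak. Over all 20807 protein-coding genes these shares were 54.4% and 31.4%, so both were lower among the hepatocyte genes, at 30.3% and 15.2%. Of the marker genes of other liver cells, WT ATACseq peaks were found near 0 of 13 for Kupffer cells, 0 of 14 for endothelial cells, 1 of 11 for stellate cells and 1 of 8 for cholangiocytes. H2A.Z peaks were found near 2, 2, 2 and 3 of them. Of these markers and the hepatocyte genes, 0 had the TSS in a dense cluster.

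The sequences below come from the 3 clusters with the most WT peaks that also held a WT ATACseq peak. They are a promoter with scattered CpGs, a CpG-poor duplicated region and a tandem array, and are shown because of their peak numbers. They do not stand for the clusters at large, since the region near Gvin1 and the array belong to the 13 repeated clusters described below and the other 329 clusters were not repeated. For each, the strongest WT ATACseq peak and the strongest WT H2A.Z peak are printed, or their central 300 bases, on the plus strand of GRCm38 from the RefSeq assembly, with every CpG in capitals.
Nuf2, ATACseq peak, chr1:169531489-169531788: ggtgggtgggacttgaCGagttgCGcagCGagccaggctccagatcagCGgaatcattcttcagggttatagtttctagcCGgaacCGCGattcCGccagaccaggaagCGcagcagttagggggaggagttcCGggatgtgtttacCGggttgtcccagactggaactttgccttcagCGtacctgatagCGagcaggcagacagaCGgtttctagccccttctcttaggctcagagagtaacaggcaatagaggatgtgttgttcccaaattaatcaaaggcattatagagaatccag
Nuf2, middle of the H2A.Z peak, chr1:169532210-169532509: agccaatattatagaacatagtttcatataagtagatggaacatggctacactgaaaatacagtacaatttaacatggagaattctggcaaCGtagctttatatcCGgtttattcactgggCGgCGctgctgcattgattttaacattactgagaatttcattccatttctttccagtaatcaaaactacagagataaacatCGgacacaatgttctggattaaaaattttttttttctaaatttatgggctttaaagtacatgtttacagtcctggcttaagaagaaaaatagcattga
Region near Gvin1, ATACseq peak, chr7:106280045-106280228: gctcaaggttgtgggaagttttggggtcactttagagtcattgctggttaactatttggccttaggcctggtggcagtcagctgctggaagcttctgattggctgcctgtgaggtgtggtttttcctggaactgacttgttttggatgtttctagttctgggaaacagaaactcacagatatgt
Region near Gvin1, H2A.Z peak, chr7:106279853-106279951: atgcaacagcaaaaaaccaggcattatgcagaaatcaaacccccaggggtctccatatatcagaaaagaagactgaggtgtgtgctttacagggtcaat
Array on chromosome 9, ATACseq peak, chr9:3000674-3000973: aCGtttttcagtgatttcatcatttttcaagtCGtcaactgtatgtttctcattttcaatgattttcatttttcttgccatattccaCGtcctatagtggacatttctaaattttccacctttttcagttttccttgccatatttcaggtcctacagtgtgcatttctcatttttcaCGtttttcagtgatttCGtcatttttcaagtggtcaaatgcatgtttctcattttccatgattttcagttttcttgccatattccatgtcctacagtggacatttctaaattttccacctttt
Array on chromosome 9, H2A.Z peak, chr9:3015965-3016221: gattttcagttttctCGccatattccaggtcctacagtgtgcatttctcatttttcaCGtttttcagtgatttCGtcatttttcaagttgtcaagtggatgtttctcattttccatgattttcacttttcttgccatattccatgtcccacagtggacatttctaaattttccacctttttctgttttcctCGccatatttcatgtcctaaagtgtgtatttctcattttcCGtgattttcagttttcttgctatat
The Nuf2 ATACseq stretch lies 25 to 324 bp upstream of the TSS and holds 14 CpGs at 53.0% G and C. The Nuf2 H2A.Z peak is 1402 bp wide and overlaps the ATACseq peak. Its summit, 295 bp upstream of the TSS, lies in the ATACseq stretch, and the H2A.Z stretch printed, 746 to 1045 bp upstream with 5 CpGs at 33.0%, is the middle of that peak and not its strongest point. Both stretches near Gvin1 hold 0 CpGs. The array stretches hold 5 CpGs each.

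Most clusters were close to the lower limit of the rule. There were 191 clusters of 6 peaks, 91 of 7 and 60 of 8 or more, against 484 chains of 5 peaks just outside the rule. The largest gap inside a cluster was 2989 bp, and the smallest gap at the edge of one was 3018 bp. The clusters were 1344 to 38235 bp long, with a median of 4365.5 bp, and the peaks themselves covered 32.6% of that length. Neighbouring summits lay 502 bp apart in the median, with quartiles of 325 and 925.5 bp, and the fullest step of 50 bp, from 300 to 350 bp, held 198 of the gaps. The clusters were found on all 19 chromosomes, from 7 on chromosomes 18 and 19 to 35 on chromosomes 1 and 2.

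About as many clusters sat at gene starts as away from them. Of the 342 clusters, 183 (53.5%; 48.2 to 58.7) held the TSS of a protein-coding gene, against 37.7% of the chains of 2 to 5 peaks. Another 64 overlapped a protein-coding gene without its TSS. The other 95 lay off protein-coding genes at a median distance of 32774 bp, and 66 of these overlapped no annotated gene of any kind. The clusters were longer than the shorter chains, and per length they held fewer gene starts, 13.3 per 100 kb against 31.7. Of 20807 protein-coding genes, 222 had the TSS in a dense cluster, a background of 1.07% for the gene groups below.

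The cluster with the most peaks after the array was at Nuf2 (chr1:169521708-169534415), which encodes a kinetochore protein of the NDC80 complex. It held 17 WT peaks over 12708 bp. The widest of them, 1402 bp long with a fold of 13.2, had its summit 295 bp upstream of the TSS, and the peak overlapped the ATACseq peak of each liver. The other 16 had folds of 3.39 to 6.74 and reached 9693 bp into the gene and 2909 bp upstream. In Uhrf1hepKO the same span held 9 peaks. The strongest, with a fold of 12.3, was again at the promoter, 308 bp upstream of the TSS. Of the 17 WT peaks, 5 were overlapped by a Uhrf1hepKO peak. Uhrf1hepKO peaks past the edges of the WT span are not in this count. Chaining the Uhrf1hepKO list gave a dense cluster here (chr1:169516829-169528609) that began farther inside the gene. It held 12 Uhrf1hepKO and 12 WT peaks.

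Hmmr, which encodes a spindle-associated hyaluronan receptor, had a cluster inside the gene and away from its TSS (chr11:40713612-40730800). The 15 WT peaks had folds of 3.41 to 5.61, and the nearest to the TSS was 2797 bp downstream. The span held 10 Uhrf1hepKO peaks, with folds of 3.72 to 6.74, and 0 ATACseq peaks in either liver. Peaks of the 2 livers overlapped at 9 of the 15 WT peaks, but not at the WT peaks on either end of the span.

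In 3 further clusters the peaks spread around a gene start. At Guf1 (chr5:69549439-69557692), which encodes a mitochondrial translation GTPase, 11 WT peaks had folds of 3.20 to 8.04 and 13 Uhrf1hepKO peaks had folds of 3.41 to 6.27. Here 9 of the 11 WT peaks lay upstream of the Guf1 TSS. At Nr3c2 (chr8:76897173-76903097), which encodes the mineralocorticoid receptor, 11 WT peaks (3.17 to 8.04) and 9 Uhrf1hepKO peaks (3.95 to 7.67) followed each other on both sides of the TSS, and 9 of the WT peaks were overlapped in Uhrf1hepKO. The ATACseq peak of each liver lay inside the gene there, 2658 and 2679 bp downstream of the TSS. At Ccdc141 (chr2:77169898-77176804), 11 WT peaks (3.39 to 6.82) and 10 Uhrf1hepKO peaks (3.49 to 7.20) reached from 648 bp downstream to 6056 bp upstream with no ATACseq peak in either list.

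A cluster off protein-coding genes (chr1:194876721-194883335) lay 55484 bp from Cd34, which encodes a surface sialomucin of endothelial and blood progenitor cells. It held 11 WT peaks with folds of 3.17 to 10.7 and 6 Uhrf1hepKO peaks with folds of 5.11 to 9.53. Its strongest WT peak (10.7) and strongest Uhrf1hepKO peak (9.53) coincided next to an ATACseq peak in each liver.

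**Figure D1:**
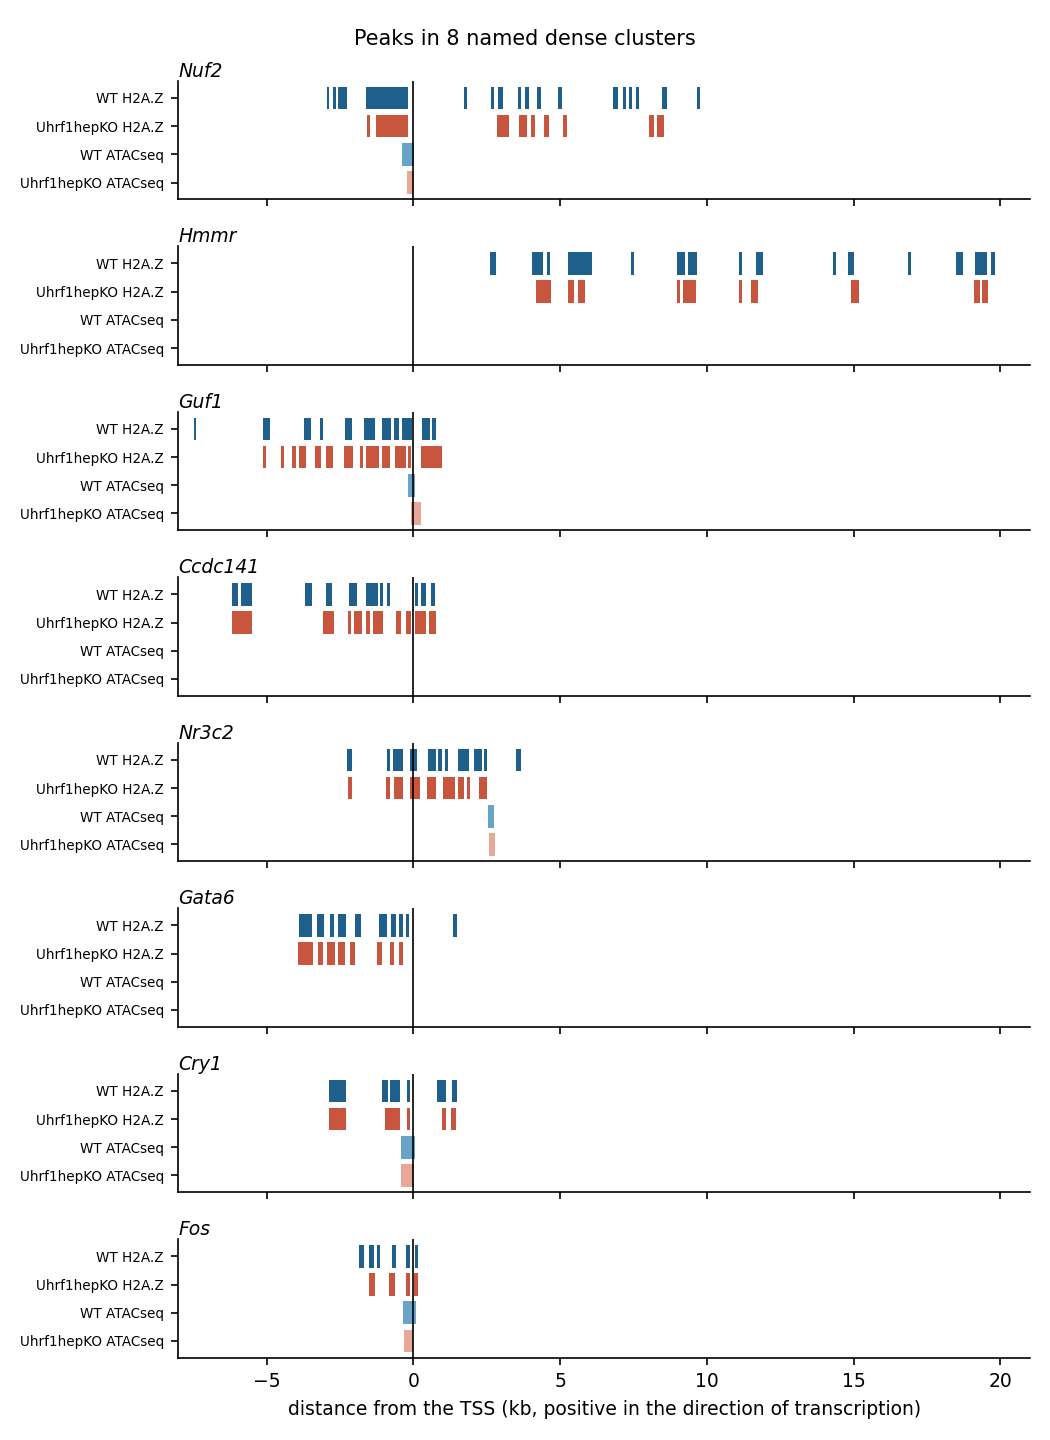
Peaks of the 4 lists at 8 named dense clusters, drawn as bars from peak start to peak end against the distance from the TSS in kb, positive in the direction of transcription; the vertical line is the TSS. Only peaks in the WT span are drawn, so blank space outside it does not show a lack of peaks. The WT peaks at Nuf2 reach from 2909 bp upstream to 9693 bp downstream, and the Hmmr peaks drawn lie inside the gene. At Hmmr, Ccdc141 and Gata6 neither liver has an ATACseq peak in the span.

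At the clusters that held a gene start, the extra peaks lay mainly upstream. Repeated clusters, defined below, were left out of this count. In 150 clusters with a single protein-coding TSS, 623 peaks had the summit upstream of the TSS and 405 downstream. The downstream share was 39.4%, against 51.0% in 3928 chains of 2 to 5 peaks with a single TSS. The clusters reached 2458 bp upstream and 726 bp downstream in the median. Of the 302 peaks farther than 2 kb from the TSS, 220 lay upstream and 82 downstream. In the shorter chains such peaks were also mostly upstream, 364 against 117, but they made up 4.39% of all peaks, against 29.4% in the clusters.

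The strongest peak lay near the TSS in most of these clusters and in nearly all of the shorter chains. The peak with the highest fold was within 1 kb of the TSS in 104 of the 150 clusters (69.3%), against 3731 of the 3928 shorter chains, which reach less far from the TSS. The median fold was 5.61 within 1 kb, 4.87 between 1 and 2 kb, and 4.63 beyond 2 kb. Of the 498 peaks within 1 kb, 53.0% had a WT ATACseq peak within 500 bp. That share was 11.8% of 228 peaks between 1 and 2 kb and 8.28% of 302 peaks farther out. The share overlapped by a Uhrf1hepKO peak fell in the same order, from 84.7% (81.3 to 87.6) to 69.3% (63.0 to 74.9) and 58.6% (53.0 to 64.0). The chains of 2 to 5 peaks had like shares at the same distances, 82.2%, 64.3% and 61.7%. Their shares with a WT ATACseq peak within 500 bp were 55.1%, 12.7% and 6.03%, also close to those of the clusters.

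**Figure D2:**
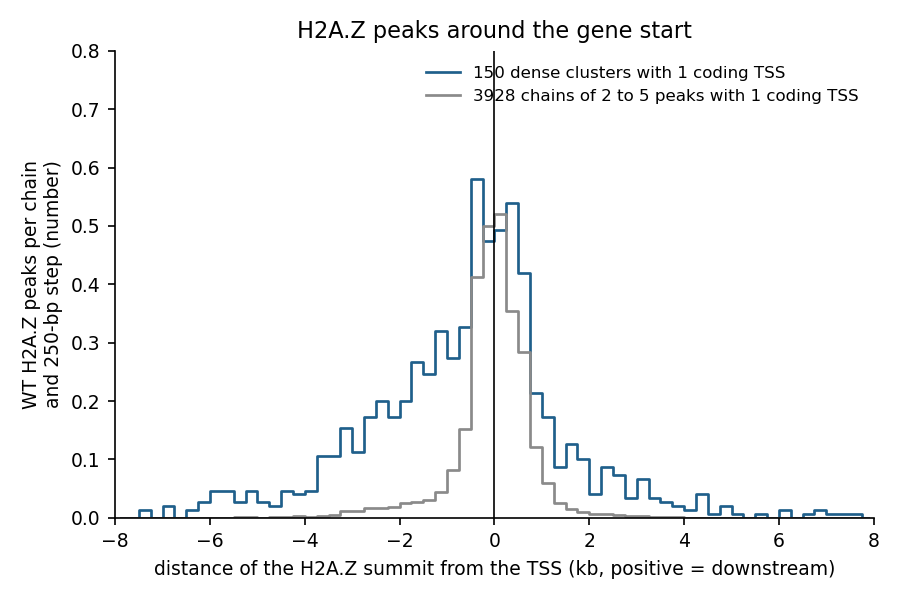
WT H2A.Z peaks per chain in steps of 250 bp against the distance of the summit from the TSS in kb, for 150 dense clusters and 3928 chains of 2 to 5 peaks that hold a single protein-coding TSS. Both lines are highest within 1 kb of the TSS, and the line of the dense clusters extends farther upstream than downstream, with a median reach of 2458 and 726 bp.

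Open chromatin was present in many clusters, usually as a single ATACseq peak. A WT ATACseq peak was in 188 of the 342 clusters (55.0%; 49.7 to 60.2), against 34.3% of the chains of 2 to 5 peaks. In Uhrf1hepKO it was 162 clusters (47.4%; 42.1 to 52.7), against 30.6%. Both livers had one in 139 clusters. Among the 188, 164 held 1 WT ATACseq peak, 22 held 2, and the array and an Sfi1 cluster held 18 and 6. Longer spans have more room for a peak, and per length the clusters held fewer WT ATACseq peaks than the shorter chains, 13.9 against 25.4 per 100 kb. Of the peaks in the clusters 27.3% (25.5 to 29.1) had a WT ATACseq peak within 500 bp, against 25.3% outside the clusters and a background of 25.4%. Without the repeated clusters the share was 25.4%, near that background. The background mixes single peaks, at 11.7%, with peaks of chains of 2 to 5, at 32.5%. The cluster peaks thus had an ATACseq peak nearby less often than those of the shorter chains. In clusters with a protein-coding TSS that were not repeated it was 33.4%, against 51.3% in shorter chains with a TSS. Without a TSS it was 16.1% against 19.6%. At equal distance from a single TSS the shares of clusters and shorter chains were close, as given above. A larger part of the cluster peaks lay far from the TSS.

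Gene starts went with the ATACseq peaks. A WT ATACseq peak was in 71.0% (64.1 to 77.1) of the clusters with a protein-coding TSS and in 36.5% (29.4 to 44.2) of those without. The same split was 59.5% and 19.1% in the chains of 2 to 5 peaks. In the 329 clusters that were not repeated, 199 of 204 WT ATACseq peaks lay with H2A.Z summits on both sides. The nearest summit was 157 bp from the centre of the ATACseq peak in the median, and 119 of the 204 peaks (58.3%) lay within 500 bp of a protein-coding TSS. For Uhrf1hepKO ATACseq peaks and the WT summits these values were 163 of 169, 159 bp and 99 of 169 (58.6%). Since an ATACseq peak had to touch the span to be counted, summits on both sides are common by construction.

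**Figure D3:**
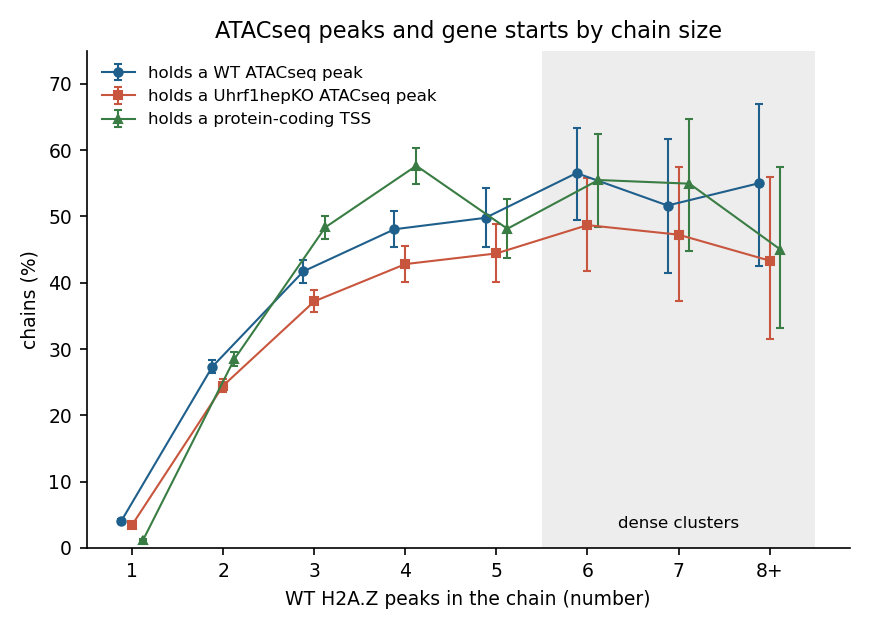
Share of chains that hold a WT ATACseq peak, a Uhrf1hepKO ATACseq peak or a protein-coding TSS, in percent, by the number of WT H2A.Z peaks in the chain, with 95% Wilson intervals as bars; 8+ stands for 8 or more peaks. The share with a WT ATACseq peak is 4.06% for single peaks, 48.1% for 4 peaks and 56.5% for 6 peaks, and the intervals of the 3 dense classes overlap.

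All 342 spans held at least 1 Uhrf1hepKO H2A.Z peak, but most held fewer than in WT. The number ran from 1 to 65 with a median of 5. A span without such a peak was found in 0 of 484 chains of 5 peaks and in 5.77% of the chains of 2 to 5. Over all clusters there were 1757 Uhrf1hepKO peaks for 2405 WT peaks, 0.731 for each WT peak, against 0.916 over the whole lists. The whole-list ratio also counts Uhrf1hepKO peaks outside every WT span. Counted within WT spans, the ratio was 0.754 in chains of 2 to 5 peaks and 0.581 in single peaks. Of the 342 clusters, 111 (32.5%; 27.7 to 37.6) held 6 or more Uhrf1hepKO peaks, 56 held at least as many as in WT and 11 held more. Because the clusters were selected on a high number of WT peaks, a lower number in any second list follows in part from the choice. The reverse choice gave the reverse difference. Chaining the Uhrf1hepKO list by the same rule gave 249 dense clusters with 1772 Uhrf1hepKO and 1447 WT peaks, and 111 of them (44.6%; 38.5 to 50.8) held 6 or more WT peaks. Chaining the 2 lists merged gave 528 clusters with 3174 WT and 2932 Uhrf1hepKO peaks, a ratio of 0.924, near that of the whole lists. In these, WT had more peaks in 262, Uhrf1hepKO in 157, and the numbers were equal in 109.

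**Figure D4:**
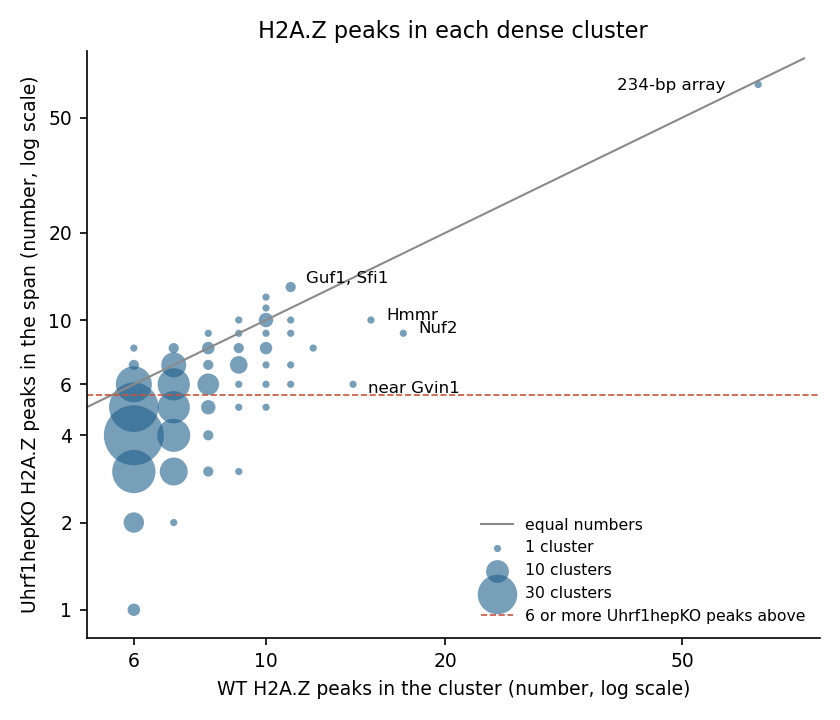
Number of Uhrf1hepKO H2A.Z peaks in the span against the number of WT peaks for the 342 dense clusters, both on log scales, with the area of a point set by the number of clusters. Of the clusters, 11 lie above the line of equal numbers and 111 above the dashed line that marks 6 or more Uhrf1hepKO peaks; the clusters were chosen on the WT axis.

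The peak widths and overlaps also followed the list on which the clusters were chosen. In the WT spans the Uhrf1hepKO peaks covered 472571 bp and the WT peaks 546277 bp, a ratio of 0.865, against 0.960 over the whole lists. Of the Uhrf1hepKO peaks in the spans, 186 (10.6%) overlapped 2 or more WT peaks, against 3.91% in the whole list, and 111 (6.32%) overlapped none, against 24.3%. Of the WT peaks 77 (3.20%) overlapped 2 or more Uhrf1hepKO peaks, against 2.92%. In the clusters chosen on the Uhrf1hepKO list the ratio was 1.16 and 8.85% of the WT peaks overlapped 2 or more Uhrf1hepKO peaks. In those chosen on both lists merged the ratio was 0.978, and 3.89% of the Uhrf1hepKO peaks overlapped 2 or more WT peaks, near the whole lists. The values in the WT spans therefore follow at least in part from the choice and are not read as a difference between the livers.

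Of the WT peaks in the clusters 1783 (74.1%; 72.3 to 75.8) were overlapped by a Uhrf1hepKO peak by at least 1 bp. The background was 70.0% of all WT peaks, and the share outside the clusters was 69.8% (69.4 to 70.2). Outside, it was 75.6% (75.1 to 76.1) in chains of 2 to 5 peaks and 58.8% in single peaks. The cluster peaks were thus not overlapped more often than those of the shorter chains. The order of inside and outside depended on the overlap asked for. With 50% of both peaks shared it was 51.4% inside and 53.8% outside, and with summits within 100 bp 56.9% and 57.8%. The fold of a peak went with a larger difference than its place. All WT peaks were split into 4 classes by fold. In the lowest class 54.6% (51.3 to 57.9) of the cluster peaks were overlapped, and 47.9% (44.2 to 51.6) without the repeated and the low-fold clusters, against 42.1% outside. In the middle classes it was 69.6% and 85.6% inside, against 61.8% and 82.3% outside. In the highest class it was 99.0% inside and 98.4% outside. Within each of the 4 classes the share was thus higher inside, where outside includes single peaks.

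The 3 clusters with the fewest Uhrf1hepKO peaks each had 6 WT peaks and 1 Uhrf1hepKO peak. A cluster (chr2:169348326-169352383) 230462 bp from Gm11011 had WT folds of 3.84 to 11.2, and its Uhrf1hepKO peak, 828 bp wide with a fold of 8.37, overlapped 3 WT peaks. The cluster upstream of Crbn (chr6:106800234-106805320), which encodes the substrate receptor of a ubiquitin ligase, kept the peak next to the gene, with a fold of 7.80 in WT and 6.04 in Uhrf1hepKO, and the other 5 WT peaks, with folds of 3.41 to 5.85, had no Uhrf1hepKO peak on them. The cluster inside Tox (chr4:6913513-6919416), which encodes a high mobility group factor, had WT folds of 3.66 to 5.12 and a Uhrf1hepKO peak of 3.95.

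More Uhrf1hepKO than WT peaks were found at the other end of the range. The region 189536 bp from Mgat4c (chr10:101486232-101491951) had 6 WT peaks of 4.14 to 12.4 and 8 Uhrf1hepKO peaks of 4.42 to 14.2. Its strongest peaks, 12.4 in WT and 14.2 in Uhrf1hepKO, overlapped. The region 10670 bp from Osbp (chr19:12004782-12013592), the gene of the oxysterol-binding protein, had 10 WT peaks of 3.66 to 12.4, all overlapped, and 12 Uhrf1hepKO peaks of 3.95 to 11.4. Guf1 and an Sfi1 cluster tied for the next place with 11 WT and 13 Uhrf1hepKO peaks each. Among the clusters chained on the Uhrf1hepKO list, that at Cyp7b1, which encodes an oxysterol hydroxylase of bile acid synthesis, had 10 Uhrf1hepKO and 3 WT peaks and overlapped no WT cluster. It was named after its values were seen.

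The lists chosen for liver each had 0 or 1 gene with its start in a cluster. Among 29 hepatocyte transcription factor genes it was Gata6 (3.45%), among 40 immediate early and early response genes Fos (2.50%), among 19 circadian clock genes Cry1 (5.26%), and among 82 cytosolic ribosomal protein genes Rpl41 (1.22%). None of 38 hormone and growth factor signalling genes and none of 39 Hox genes was in a cluster. With 0 or 1 gene in a list, its share cannot be told apart from the background of 1.07%.

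Gata6 encodes a zinc finger factor of endoderm. Its cluster (chr18:11048184-11053569) held 10 WT peaks of 3.41 to 6.82, 9 of them upstream of the TSS, and 8 Uhrf1hepKO peaks of 3.25 to 7.20, with no ATACseq peak in either liver. Cry1 encodes a repressor of the clock. Its cluster (chr10:85183583-85187944) held 6 WT peaks of 5.61 to 11.0, all overlapped by 5 Uhrf1hepKO peaks of 4.88 to 11.2, with an ATACseq peak at the TSS of 7.88 in WT and 6.70 in Uhrf1hepKO. Fos encodes a subunit of AP-1. Its cluster was the shortest of these, 2014 bp (chr12:85472037-85474050), with 6 WT peaks of 2.92 to 7.80 and 4 Uhrf1hepKO peaks of 3.95 to 7.90. The strongest peak lay 185 bp upstream of the Fos TSS in WT and 175 bp upstream in Uhrf1hepKO.

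The gene for H2A.Z itself, H2afz, was in a cluster (chr3:137863677-137868368) together with its neighbour Dnajb14, which encodes a co-chaperone. The 6 WT peaks had folds of 4.14 to 5.85 and the 3 Uhrf1hepKO peaks 4.65 to 6.74. The 2 WT peaks in the body of H2afz, 726 and 1058 bp downstream of the TSS, were not overlapped in Uhrf1hepKO, while the peak 434 bp upstream of it and the 3 at Dnajb14 were. The list for H2A.Z and its exchange machinery held 14 genes, among them Uhrf1, which is not part of that machinery. Of the 14, H2afz was the one in a dense cluster, and 8 had the TSS in a chain of 2 to 5 peaks. All 14 starts were no more than 5 kb from a WT H2A.Z peak. Over all protein-coding genes 25.3% had the TSS in a chain of 2 to 5 peaks and, as given above, 54.4% had a WT H2A.Z peak within 5 kb.

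Of 260 zinc finger genes named Zfp300 to Zfp999, 7 (2.69%) had the TSS in a cluster: Zfp330, Zfp383, Zfp418, Zfp444, Zfp608, Zfp667 and Zfp870. Their highest WT folds were 7.07 to 11.5. Zfp330, Zfp667 and the cluster shared by Zfp27 and Zfp383 had every WT peak overlapped in Uhrf1hepKO. At Zfp608 it was 6 of 7, at Zfp444 4 of 6, and at Zfp418 and Zfp870 3 of 6 each. Another 138 of the 260 genes (53.1%) had the TSS in a chain of 2 to 5 peaks, against 25.3% of all protein-coding genes, and 210 (80.8%) were no more than 5 kb from a WT H2A.Z peak, against 54.4%.

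A further list was counted. The study gives a list of cell proliferation genes, silenced in quiescent liver and annotated to proliferation, from its active chromatin states. Those states were built on WT H2A.Z and ATACseq data together with H3K4me3, H3K27me3 and H3K9me3. The paper describes them as enriched for H2A.Z, so this list is not independent of the peaks counted here. It was added after the clusters were seen. Of its 584 genes 567 were found, and 12 (2.12%) had the TSS in a cluster: Aptx, Aurkb, Bard1, Fhit, Fign, Kif18a, Mad2l1, Mus81, Nfia, Nuf2, Polq and Tfap4. Another 301 (53.1%) were in chains of 2 to 5 peaks, against 25.3% of all protein-coding genes. Polq, which encodes a DNA polymerase of end joining, had the strongest peak of any cluster, 16.1 in WT, and 12.8 was the strongest in Uhrf1hepKO, with 10 peaks in each. Aurkb, the gene of the mitotic kinase Aurora B, had 7 WT and 5 Uhrf1hepKO peaks. Mad2l1, the gene of a spindle checkpoint protein, had 6 and 5. Bard1, the partner of BRCA1, had 7 and 4 in the WT span. The cluster chained there on the Uhrf1hepKO list held 7 Uhrf1hepKO and 7 WT peaks. Rpl41 and Zc3h10 shared a cluster of 7 WT and 4 Uhrf1hepKO peaks.

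The clusters held more CpGs than the genome and fewer than the shorter chains. They had 1.92 CpGs per 100 bp, against 0.851 on chromosomes 1 to 19, 2.99 in chains of 2 to 5 peaks and 1.79 in single peaks. Clusters with a protein-coding TSS had 2.53 and those without 1.33. Under the peaks alone the value was 2.13. Among named clusters it ran from 0.280 in the region near Mgat4c and 0.413 in that near Gvin1 to 4.29 at Gata6, 4.34 at Nr3c2, 4.93 at Cry1, 5.31 at Fos and 6.99 at H2afz.

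A small set of clusters stood on repeated DNA. For each cluster the share of its 32-base words that occur more than once on the assembled chromosomes was counted, and 13 clusters with more than 50% were called repeated. A read from such DNA cannot always be assigned to a single copy. The largest was the array at the start of the assembled chromosome 9 (chr9:3000018-3038252), which overlaps 9 predicted genes, Gm10722 to Gm10715. Its sequence matched itself best at a shift of 234 bp, with 71.3% identical bases against a median of 31.3% over other shifts. It held 67 WT and 65 Uhrf1hepKO peaks, 18 WT and 20 Uhrf1hepKO ATACseq peaks, and 92.7% of its words recurred. The H2A.Z folds were 1.43 to 1.84 in WT and 1.46 to 1.80 in Uhrf1hepKO.

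The region near Gvin1, the gene of an interferon-inducible GTPase (chr7:106274005-106286346), lay 58679 bp from that gene, and 83.5% of its words recurred. It held 14 WT peaks of 3.38 to 5.36, of which 5 were overlapped, and 6 Uhrf1hepKO peaks of 3.49 to 6.97. Together the 13 repeated clusters held 154 WT and 125 Uhrf1hepKO peaks and 28 WT ATACseq peaks. In 11 clusters no WT peak reached 5.12, the median fold of the whole list, and 3 of the 11 were repeated. The rest included 3 clusters that overlap Sfi1, which encodes a centrosome protein. The cluster in Sfi1 alone (chr11:3157019-3169742) had 11 WT peaks of 1.80 to 3.47, all overlapped, 13 Uhrf1hepKO peaks of 1.87 to 3.83, and 6 WT and 5 Uhrf1hepKO ATACseq peaks. The cluster that overlaps both Sfi1 and Drg1 (chr11:3184476-3190337) had 12 WT peaks of 1.75 to 2.53, all overlapped, and 8 Uhrf1hepKO peaks. The 13 repeated clusters had a median of 6 WT and 5 Uhrf1hepKO peaks, the same as all dense clusters. What part low fold and repeats had in the peak numbers was not tested.

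**Figure D5:**
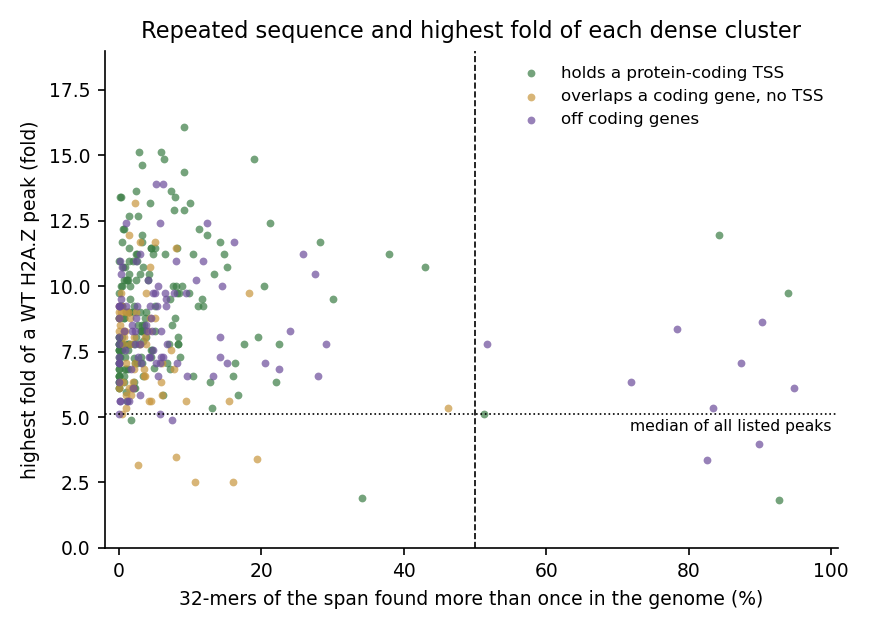
Highest fold of a WT H2A.Z peak against the share of 32-base words that recur in the genome, in percent, for the 342 dense clusters, coloured by place; the dashed line is at 50% and the dotted line at the median fold of all listed WT peaks, 5.12. The 13 clusters right of the dashed line range from a highest fold of 1.84 in the array to 11.9, and most clusters lie at the left, above the dotted line.

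Without the repeated and the low-fold clusters, 321 clusters were left. Of these 53.3% held a WT ATACseq peak, 55.1% held a protein-coding TSS and 31.5% held 6 or more Uhrf1hepKO peaks, and 73.6% of their WT peaks were overlapped in Uhrf1hepKO. These values differed from those of all 342 by less than the counting intervals.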

How the data were processed

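Chromatin of WT and Uhrf1hepKO mouse liver was profiled by ATACseq and by H2A.Z ChIPseq, 1 library for each condition and assay. Reads were checked with FastQC 0.11.5, trimmed with Trimmomatic, aligned to GRCm38 with BWA and cleaned with Picard, and peaks were called for each library with MACS2, whose version and control are not given in the sources used here. The authors deposited a peak list for each library, with the fold enrichment of each peak, its −log10 p and q values, a score made from the q value and, for H2A.Z, the summit offset, which is in base pairs. The deposited score and −log10 columns were used only to read the q value limit of the lists. Read counts were not analysed here, so depth is unknown, and the fold and the number of peaks depend on it.

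Dense clusters were the chains of 6 or more WT H2A.Z peaks on chromosomes 1 to 19 with successive summits 3 kb or less apart. A Uhrf1hepKO H2A.Z peak was counted in a cluster by its summit, an ATACseq peak by 1 bp of overlap with the span. Genes are those of GENCODE vM21, with the TSS at the 5′ end of the gene. CpGs and 32-base words were counted in the RefSeq copy of GRCm38. Chaining, counting and word counts were tested on simulated data. Python 3 with numpy, pandas and scipy was used. No test was run, as there were no replicates, and groups are those of the labels. The members and the gene lists were chosen with earlier results of these data known. Named clusters are the 10 with the most WT peaks, the 3 longest, the 3 with the most WT ATACseq peaks, the 3 with the fewest and the 3 with the most Uhrf1hepKO peaks relative to WT, ties included, and those at genes of the lists. The alternatives changed the gap, the number of peaks, the overlap and the folds admitted, 1 at a time. Peaks on X, Y and other sequence were not part of the clusters.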

Additional observations from a re-analysis of the deposited data

Results flagged for a closer look

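The same chaining was applied to WT H2A.Z peaks that the comparisons do not use. It gave 4 dense chains on X and 5 on sequence not placed on a chromosome, and they are given because they lie outside the comparisons. Each of chromosomes 1 to 19 held 7 to 35 such clusters, a count that takes no account of sequence length. On X they held 9, 9, 7 and 9 WT peaks and 6, 7, 7 and 5 Uhrf1hepKO peaks, with highest folds of 3.84, 6.34, 11.0 and 8.77. On the unplaced sequence they held 6, 14, 30, 6 and 98 WT peaks and 5, 12, 29, 5 and 78 Uhrf1hepKO peaks, and the highest fold was 2.63 to 3.16 in 4 of them and 6.34 in the other. The 4 with the low folds all lay on 1 scaffold, JH584304.1, between positions 399 and 113369. The chain of 98 WT peaks was larger than any cluster on chromosomes 1 to 19, where the most was 67. No explanation was tested.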

How the results depend on the processing

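The lists hold 1 library for each condition and assay, without depth, so that none of the values has a replicate error. No replicate could be left out. No paired analysis was possible because the groups compared hold 1 library each. Of 100 values under other settings, 54 stayed within their counting interval or within 1.5 times the count, and 46 moved; the cause was not tested where the setting itself does not give it. A peak centre in place of the summit gave 346 clusters, and no rows of the list overlapped, so that merging gave the same 342. With a gap of 2 kb, 30.1% of cluster peaks had an ATACseq peak within 500 bp, and there were 2.24 CpGs per 100 bp. With a gap of 4 kb the latter was 1.74. With 5 or more peaks there were 826 clusters, 17.2% with 6 or more Uhrf1hepKO peaks, and 2.08 CpGs per 100 bp. With 8 or more there were 60 clusters, 45.0% with a TSS and 81.7% with 6 or more Uhrf1hepKO peaks; 75.9% of peaks were overlapped, and there were 1.53 CpGs per 100 bp.

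With WT H2A.Z peaks under the median fold left out there were 25 clusters, 40.0% with a Uhrf1hepKO ATACseq peak, 60.0% with a TSS, 56.0% with 6 or more Uhrf1hepKO peaks and 2.61 CpGs per 100 bp; 91.8% of peaks inside and 87.8% outside were overlapped, and 34.1% outside had an ATACseq peak within 500 bp, against 27.8% inside. With the ATACseq peaks under their median fold left out, 29.5% of clusters held a WT and 27.8% a Uhrf1hepKO one, and 12.8% of peaks inside and 15.3% outside had a WT one within 500 bp, so that the order of inside and outside reversed. That share was 9.98% and 8.68% for overlap by 1 bp, and 35.0% and 27.9% within 1 kb. Overlap in Uhrf1hepKO was 51.4% inside and 53.8% outside with 50% of both peaks shared, 56.9% and 57.8% with summits within 100 bp, and 46.4% and 47.6% without the Uhrf1hepKO peaks under their median fold, when 3.80% of clusters held 6 or more.

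A TSS was in 60.2% of clusters for any transcript, 62.0% for all annotated genes, and 58.8% within 1 kb. Under peaks alone there were 2.13 CpGs per 100 bp. In alternatives chosen after seeing the data, leaving out the repeated clusters gave 25.4% of peaks near an ATACseq peak and 1.94 CpGs per 100 bp, and leaving out the low-fold clusters too gave 24.6% and 1.97. Chaining both lists merged gave 528 clusters, 43.2% with 6 or more Uhrf1hepKO peaks, 71.3% of WT peaks overlapped, and 1.80 CpGs per 100 bp.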
